A study of Homo sapiens with 30 samples.

Results

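The 9 genes described here are enzymes of drug and steroid metabolism in the intestine and liver, together with the receptor PXR, and they were taken by symbol from the 24462 gene symbols counted in every library. CYP3A4, CYP3A5 and CYP2B6 are cytochrome P450 enzymes that oxidise drugs, and MAOA is a mitochondrial oxidase that breaks down serotonin and other amines. UGT1A1 and UGT2A3 attach glucuronic acid to their substrates, which for UGT1A1 include bilirubin, and SULT1C2 and SULT2A1 attach sulfate, SULT2A1 acting on steroids and bile acids. NR1I2 encodes PXR, a nuclear receptor that binds drugs and bile acids, pairs with the retinoid X receptor RXRA and switches on CYP3A4, CYP2B6 and UGT1A1 among other targets. In the gut, CYP3A4 is a main P450 of the mature absorptive cells of the small intestine. Its promoter is also a known target of the vitamin D receptor VDR.

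Gene expression was measured in 30 libraries, 3 for each of 10 groups, from Caco2, HCT116 and SW480, which are colorectal cancer cell lines. SETDB1, the target of the hairpin, encodes a methyltransferase of lysine 9 of histone H3, and KRT20, used for sorting, encodes a keratin of mature intestinal epithelium. The Caco2 cells carried a scrambled hairpin, kept in vehicle or in differentiation medium, or a SETDB1 hairpin, sorted into KRT20-negative and KRT20-positive fractions. The differentiation medium held 10 uM troglitazone, an agonist of the nuclear receptor PPARG, and 25 nM of the VDR ligand 1α,25-dihydroxyvitamin D3, and was given from 3 days after retroviral transduction. HCT116 and SW480 were profiled as SETDB1-hairpin cells labelled KRT-negative or KRT-positive, without the keratin's number, and as unsorted cells. All transduced cells were selected with puromycin. Left unstated are the medium of the SETDB1-hairpin and the unsorted cells, the hairpin of the latter, and whether replicates came from separate cultures. The p-values therefore measure the spread between these samples, which may be technical.

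Levels are given as CPM, the count of a gene relative to the scaled total of its library, with scaling done within each line. The library totals were 5349737 to 10221854 counts, and 3 counts, taken as the upper limit behind a reading of 0 (counting error only), equalled 0.293 to 0.561 CPM. In Caco2, SETDB1 stood at 28.9 to 32.2 CPM in the vehicle libraries and at 19.5 to 26.1 CPM in the SETDB1-hairpin libraries, and KRT20 at 25.9 to 37.8 CPM in the KRT20-positive and 1.03 to 1.76 CPM in the KRT20-negative fraction. In HCT116 and SW480 the replicates spread far more, and some libraries went against their labels. SETDB1 was 36.1 CPM in the SW480 library labelled KRT-negative replicate 1, against 15.03 to 35.9 CPM in unsorted cells. In HCT116, SETDB1 read 72.5, 70.8 and 16.8 CPM in unsorted, 2.15, 19.9 and 31.3 CPM in KRT-positive and 0, 5.75 and 2.97 CPM in KRT-negative libraries, so that unsorted and KRT-positive cells overlapped. KRT20 had counts in 1 of the 3 HCT116 libraries labelled KRT-positive. Groups of these lines are therefore named by their labels only. Of 19 colonocyte markers, all had counts in Caco2 vehicle cells, against 4 in unsorted HCT116 and 3 in unsorted SW480 cells. LGALS4, CDH17 and CDX1 were at 0 in both, and CDX1 also in Caco2 differentiation medium and KRT20-positive cells. The 19 markers summed to 68.4 to 172 CPM in unsorted HCT116 and 186 to 353 CPM in unsorted SW480 cells. In Caco2 they summed to 1177 to 1218 CPM in vehicle and 1134 to 1169 CPM in differentiation medium. The KRT20-negative fraction held 2898 to 3058 CPM and the KRT20-positive fraction 3755 to 3914 CPM. The summed level of 14 hepatocyte markers in Caco2 was 1390 to 1484 CPM in vehicle, 820 to 888 CPM in differentiation medium, 8708 to 10030 CPM in the KRT20-negative and 9490 to 10045 CPM in the KRT20-positive fraction. All 14 had counts in every one of those groups. The part of either marker change in the results below was not tested. A list of 12 fibroblast markers summed to 640 CPM in the KRT20-negative replicate 3 and to 38.5 to 59.9 CPM in the other Caco2 libraries.

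The upstream sequences of CYP3A4, CYP3A5, CYP2B6 and SULT2A1 are shown because CYP3A4 and CYP3A5 carry the kind of element known to bind PXR, while CYP2B6 and SULT2A1 moved in opposite directions in the differentiation medium. Each is the 250 bases before the gene start in RefSeq on GRCh38.p14, on the strand of the gene, with capitals marking the hexamers AGGTCA and AGTTCA, or their reverse complements TGACCT and TGAACT, that nuclear receptors bind. CYP3A4 lies on chr7:99784185-99784434 (minus strand), CYP3A5 on chr7:99679997-99680246 (minus), CYP2B6 on chr19:40991032-40991281 (plus) and SULT2A1 on chr19:47886316-47886565 (minus).
CYP3A4: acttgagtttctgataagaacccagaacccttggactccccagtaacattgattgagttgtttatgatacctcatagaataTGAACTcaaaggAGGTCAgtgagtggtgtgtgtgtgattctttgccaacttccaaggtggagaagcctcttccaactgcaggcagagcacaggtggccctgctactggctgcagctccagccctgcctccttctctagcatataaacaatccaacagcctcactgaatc
CYP3A5: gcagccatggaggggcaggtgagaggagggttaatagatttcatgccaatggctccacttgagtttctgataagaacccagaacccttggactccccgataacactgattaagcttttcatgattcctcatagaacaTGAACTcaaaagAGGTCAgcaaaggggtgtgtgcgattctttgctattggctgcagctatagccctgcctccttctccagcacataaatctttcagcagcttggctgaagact
CYP2B6: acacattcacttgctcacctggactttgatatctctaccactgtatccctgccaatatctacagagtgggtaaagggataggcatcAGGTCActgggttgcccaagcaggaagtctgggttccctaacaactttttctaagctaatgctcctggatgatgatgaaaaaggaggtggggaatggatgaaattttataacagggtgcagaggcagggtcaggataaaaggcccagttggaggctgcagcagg
SULT2A1: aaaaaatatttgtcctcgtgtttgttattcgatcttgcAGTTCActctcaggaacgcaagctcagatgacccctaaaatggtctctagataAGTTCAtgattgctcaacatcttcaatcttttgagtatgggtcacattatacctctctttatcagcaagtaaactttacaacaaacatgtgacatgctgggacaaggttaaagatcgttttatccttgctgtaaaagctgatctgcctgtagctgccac
In CYP3A4 and CYP3A5 the capitals form an everted repeat, in which TGACCT or TGAACT is followed after 6 bases by AGGTCA or AGTTCA. It spans bases -169 to -152 in CYP3A4 and -113 to -96 in CYP3A5, counted from the gene start, and 17 of its 18 bases were identical between both genes. On both strands, 7 of 35116 RefSeq promoters of 300 bases held this repeat (0.01993%). The hexamer AGGTCA alone was in 13.83% and AGTTCA in 10.45% of those promoters, so the lone AGGTCA of CYP2B6 at -164 and the 2 AGTTCA of SULT2A1 are common matches. Such matches describe the letters in these windows and not the binding of a factor. The upstream window of UGT1A1 held 2 AGTTCA hexamers, that of UGT2A3 held 1, that of SULT1C2 held 3 hexamers of either kind, and that of MAOA held none.

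Across the Caco2 groups, the enzymes were lowest in the scramble cells and highest in the SETDB1-hairpin fractions, while NR1I2 itself was near 0 throughout. In HCT116 and SW480 most of the enzymes were at 0 or scattered between replicates. CYP3A4 was highest in the libraries labelled KRT-positive in both lines, though in HCT116 these scattered from 1.07 to 16.3 CPM.

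**Figure D1:**
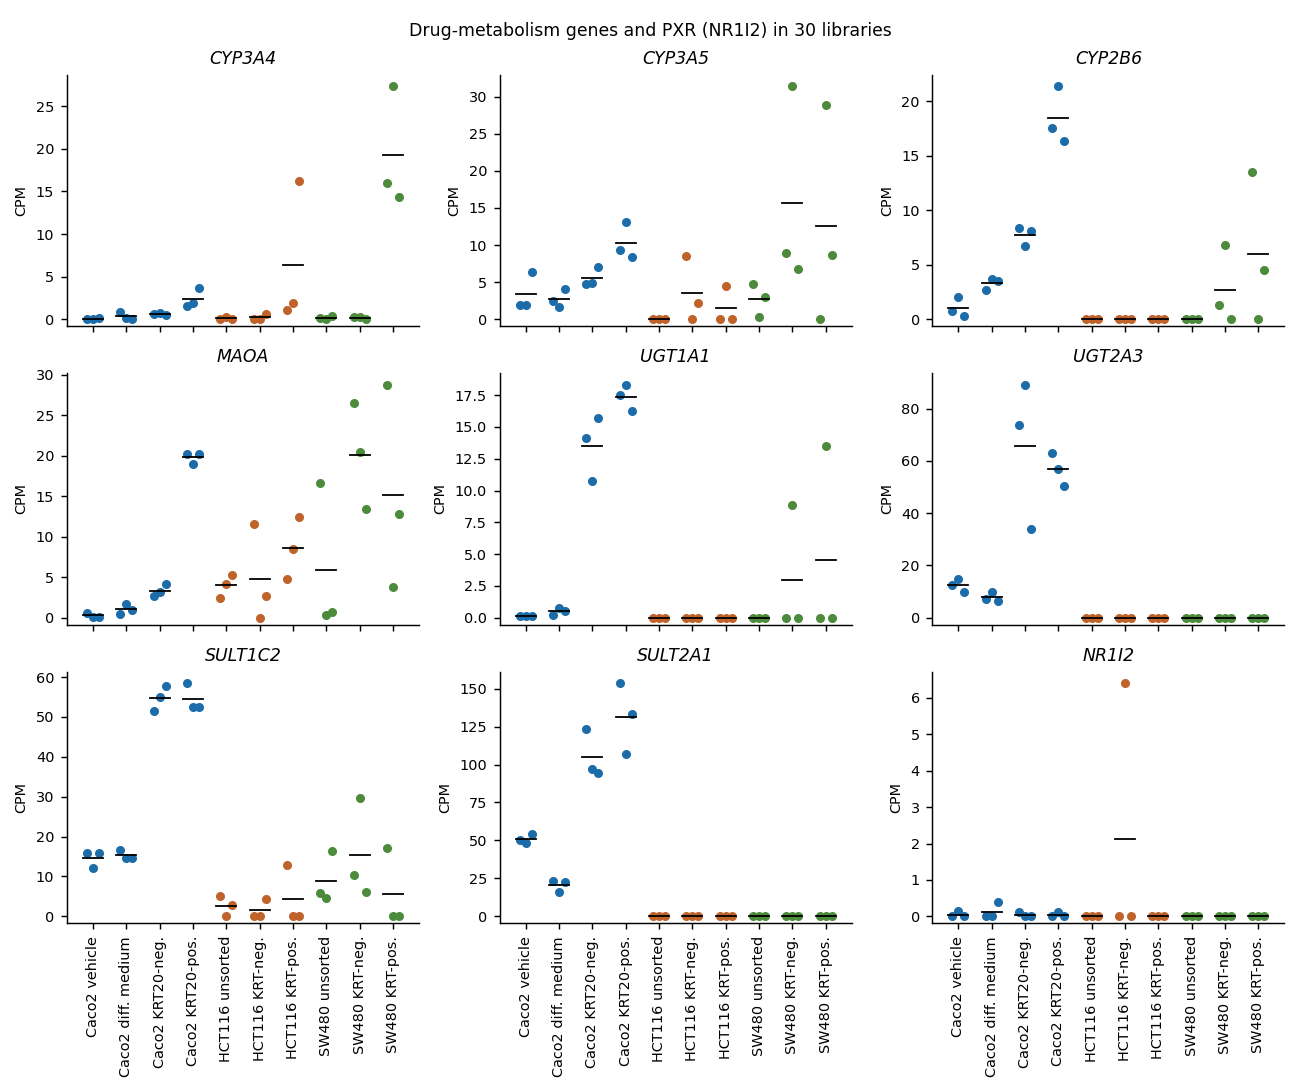
CPM of the 9 genes in all 30 libraries; each point is 1 library, each black line the mean of 3, and each panel has its own linear scale. Blue is Caco2, orange HCT116 and green SW480. The enzymes' Caco2 points climb from the scramble groups to the SETDB1-hairpin groups. CYP3A4 is higher in the KRT-positive group of each line than in the other groups of that line.

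CYP3A4 was near its detection limit in Caco2 scramble cells and rose in the KRT20-positive fraction. The vehicle libraries read 0, 0 and 0.153 CPM (1 count in all), the differentiation medium 0.825, 0.154 and 0 CPM, the KRT20-negative fraction 0.570, 0.703 and 0.506 CPM and the KRT20-positive fraction 1.51, 1.86 and 3.67 CPM. Both SETDB1-hairpin fractions lay above vehicle without overlap, and the KRT20-positive libraries lay above every other Caco2 library. Against vehicle the log2 fold change was 5.27 ± 0.96 (SE) in the KRT20-positive fraction (adjusted p = 0.000126), and the 95% counting interval of the ratio, which rests on the 1 vehicle count, ran from 8.96 to 2097. Against differentiation medium the KRT20-positive level was 7.19-fold higher (log2 2.70 ± 0.68, adjusted p = 0.00312), and 4.77 on the log2 scale without medium replicate 1, which held 7 of that group's 8 counts. The KRT20-negative fraction against vehicle gave 3.30 ± 1.20 (adjusted p = 0.0334), a call lost without vehicle replicate 1 (adjusted p = 0.120) or 2 (0.104), or without KRT20-negative replicate 1 (0.0507) or 2 (0.0697). Between the fractions the level was 3.95-fold higher in KRT20-positive cells, which missed the threshold (adjusted p = 0.0676). In Caco2 CYP3A4 passed the low-count filter only through the KRT20-positive libraries, so these tests were made on a gene that had to differ. CYP2B6, UGT1A1 and MAOA, given below, likewise passed only through groups in which they were high.

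In the other lines CYP3A4 was again highest in the cells labelled KRT-positive. In SW480 the libraries labelled KRT-positive read 16.0, 27.4 and 14.3 CPM, those labelled KRT-negative 0.216, 0.222 and 0 CPM, and the unsorted 0.150, 0 and 0.327 CPM. In HCT116 the libraries labelled KRT-positive read 1.07, 1.87 and 16.3 CPM, the KRT-negative 0, 0 and 0.636 CPM and the unsorted 0, 0.287 and 0 CPM. The KRT-positive libraries stood above all others of their line in both, although HCT116 replicate 3 carried most of that line's counts. The mean in SW480 was 121-fold above unsorted cells (log2 6.79 ± 2.15, adjusted p = 0.108) and 132-fold above KRT-negative cells (6.92 ± 2.15, adjusted p = 0.248) without passing the threshold in edgeR, and DESeq2 called both (adjusted p = 6.96e-05 and 0.000117). In both lines CYP3A4 passed the low-count filter only through the KRT-positive libraries, so these tests were made on a gene that had to differ. With 1 SW480 library left out, the log2 difference from unsorted cells ran from 6.24 (without unsorted replicate 2) to 7.82 (without unsorted replicate 3). That from KRT-negative cells ran from 6.37 (without KRT-negative replicate 3) to 7.31 (without KRT-negative replicate 2), and was 7.27 without KRT-negative replicate 1, whose SETDB1 stood at the unsorted level (adjusted p = 0.570). In HCT116 the log2 fold change was 5.79 ± 2.88 against unsorted cells (adjusted p = 0.251), where the ratio's counting interval, on 2 unsorted counts, was 15.3 to 465, and 4.81 ± 2.72 against KRT-negative cells (adjusted p = 0.572). Libraries of these lines also differ in how expression follows transcript GC content, and were classed by it as AT-rich or GC-rich. In SW480 the AT-rich class was replicate 2 of every group and no other library, so class and replicate number cannot be told apart. In SW480 the KRT-positive libraries were above the others within each GC class (27.4 CPM against 0 to 0.222 CPM in the AT-rich class, 14.3 to 16.0 CPM against 0 to 0.327 CPM in the GC-rich class), and in HCT116, whose 3 libraries labelled KRT-positive were all of the AT-rich class, they read 1.07 to 16.3 CPM against 0 to 0.287 CPM in that class.

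**Figure D2:**
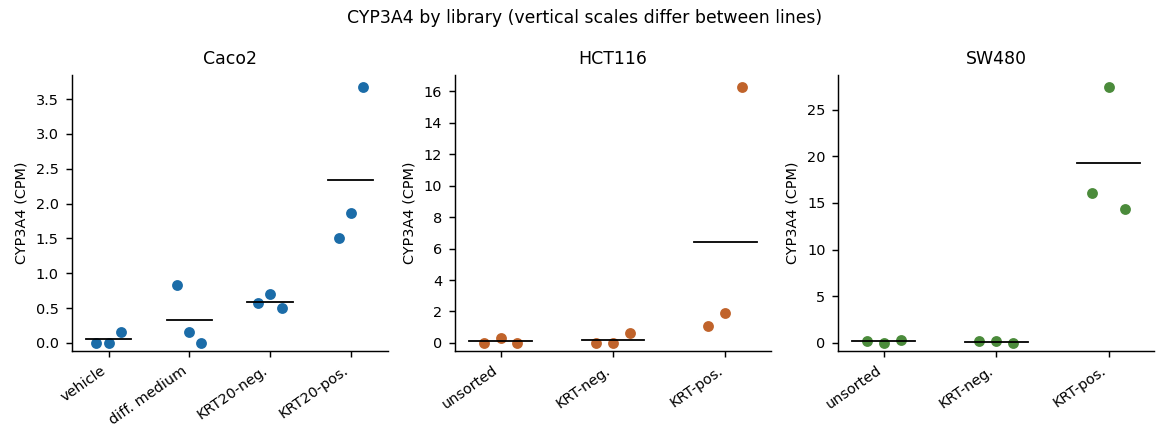
CYP3A4 in CPM by library (points) and group mean (black lines) for Caco2, HCT116 and SW480, on linear axes whose scales differ. The KRT-positive libraries sit at 1.51 to 3.67, 1.07 to 16.3 and 14.3 to 27.4 CPM, above all other libraries of their line.

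Counted over the lines, 9 of 9 KRT-positive libraries were above all others of their own line for CYP3A4, a description chosen after its values were seen. Within a line the pattern was met by 2.91% of genes in Caco2, 3.77% in HCT116 and 3.15% in SW480. Of 15825 genes with a count in every line, 13 (0.0821%) had it in all 3 lines, among them the retinol and steroid dehydrogenase DHRS9. None of the other 8 genes described here did. The order of the group means put SW480, HCT116 and Caco2 KRT-positive cells at 19.2, 6.40 and 2.34 CPM, with overlapping libraries between neighbours, and the Caco2 KRT20-positive libraries did not overlap the Caco2 KRT20-negative ones, next at 0.593 CPM. Each line was scaled on its own, so levels between lines are side by side only.

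CYP3A5, the close relative of CYP3A4, was present in all Caco2 groups and rose in the KRT20-positive fraction. Vehicle read 1.96, 1.88 and 6.29 CPM, differentiation medium 2.48, 1.69 and 3.998 CPM, KRT20-negative cells 4.79, 4.92 and 7.09 CPM and KRT20-positive cells 9.32, 13.1 and 8.39 CPM. Vehicle replicate 3 stood with the KRT20-negative libraries, and the KRT20-positive libraries were above all others. The KRT20-positive level was 3.04-fold that of vehicle (log2 1.64 ± 0.38, adjusted p = 0.00208). The KRT20-negative difference was 0.77 ± 0.39 (adjusted p = 0.132). Without vehicle replicate 3 these differences became 2.40 (adjusted p = 1.42e-05) and 1.54 (adjusted p = 0.00243). Against differentiation medium it was 1.03 ± 0.40 (adjusted p = 0.0492), a call lost with another scaling (0.0521) and in 5 of the 6 fits that left out 1 library (0.0563 to 0.169).

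CYP2B6, a PXR target like CYP3A4, rose in steps through all 4 Caco2 groups. Vehicle read 0.737, 2.02 and 0.307 CPM, differentiation medium 2.71, 3.69 and 3.48 CPM, KRT20-negative cells 8.33, 6.68 and 8.10 CPM and KRT20-positive cells 17.5, 21.4 and 16.4 CPM. No group overlapped its neighbour. Against vehicle the increase was 3.23-fold in differentiation medium (log2 1.64 ± 0.38, adjusted p = 0.00309), 7.55-fold in KRT20-negative cells (2.87 ± 0.34, adjusted p = 3.63e-07) and 18.1-fold in KRT20-positive cells (4.13 ± 0.32, adjusted p = 2.45e-10). Without vehicle replicate 2 these 3 differences were 2.55, 3.79 and 5.04 on the log2 scale. KRT20-positive cells held 2.39 times the KRT20-negative level (1.26 ± 0.23, adjusted p = 0.00155).

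MAOA differed between the sorted fractions as well as from vehicle. Vehicle read 0.614, 0.135 and 0.153 CPM, differentiation medium 0.471, 1.69 and 0.903 CPM, KRT20-negative cells 2.62, 3.16 and 4.15 CPM and KRT20-positive cells 20.2, 19.0 and 20.2 CPM. The KRT20-positive libraries lay close together and far above the rest, and vehicle and differentiation medium overlapped. The KRT20-positive level was 5.97-fold the KRT20-negative one (log2 2.56 ± 0.26, adjusted p = 4.89e-07) and 65.7-fold that of vehicle (5.90 ± 0.38, adjusted p = 1.36e-11). KRT20-negative cells were 11.02-fold above vehicle (3.34 ± 0.46, adjusted p = 4.56e-06). The vehicle level rests on 7 counts, 5 of them in replicate 1, without which the log2 differences from vehicle were 6.95 and 4.39. The medium's difference, 1.58 ± 0.59 (adjusted p = 0.0605), passed the threshold without vehicle replicate 1 (adjusted p = 0.0225) or medium replicate 1 (0.0229).

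UGT1A1 went from traces to a steady level in both SETDB1-hairpin fractions. Vehicle read 0.123, 0.135 and 0.153 CPM, which is 1 count in each library, and differentiation medium 0.236, 0.768 and 0.516 CPM. KRT20-negative cells read 14.1, 10.8 and 15.7 CPM and KRT20-positive cells 17.5, 18.3 and 16.2 CPM, so that both fractions were far above the scramble cells. The log2 fold change against vehicle was 6.48 ± 0.38 in KRT20-negative cells (adjusted p = 2.22e-12; counting interval of the ratio 34.1 to 490) and 6.84 ± 0.37 in KRT20-positive cells (adjusted p = 4.05e-13; interval 43.4 to 623). Against differentiation medium the rises were 26.7-fold and 34.3-fold (adjusted p = 1.36e-11 and 2.82e-12). Between the fractions the libraries did not overlap, and the difference of 0.36 ± 0.18 missed the threshold (adjusted p = 0.337).

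The count of UGT1A1 shares its locus with its family. The 9 UGT1A genes join different starting exons to common last exons on chromosome 2, and in GENCODE 29 on GRCh38 their ends lie within 11 bases of each other, so reads from the 3′ end cannot tell them apart. The labels name a kit that sequences 3′ ends, but the catalogue number beside it may belong to another kit, so whether these counts are 3′ tags is not settled. How the authors assigned reads that fit several UGT1A genes, and whether they counted by strand, is not given in the sources used here. Of 51209 counts under UGT1A symbols in the 30 libraries, 97.91% were listed under UGT1A3 and 1.908% under UGT1A1. UGT1A3 read 31.6, 38.6 and 27.6 CPM in vehicle, 56.8, 63.0 and 48.8 CPM in differentiation medium, 349, 280 and 119 CPM in KRT20-negative and 370, 301 and 328 CPM in KRT20-positive cells. Its lowest KRT20-negative library was replicate 3, the one with the fibroblast markers. With all UGT1A symbols summed to 1 feature, a choice made after seeing the data, the level was 8.01-fold that of vehicle in KRT20-negative (log2 2.997, adjusted p = 0.000218) and 10.7-fold in KRT20-positive cells (3.41, adjusted p = 9.04e-05). The family as a whole therefore rose in both fractions, by a smaller factor than the counts under UGT1A1.

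**Figure D3:**
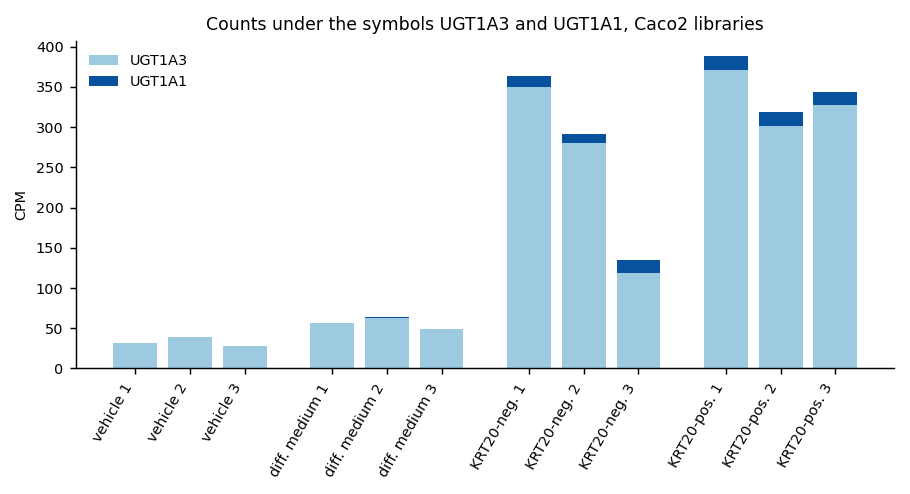
CPM listed under UGT1A3 (light) and UGT1A1 (dark), stacked from 0, in the 12 Caco2 libraries. The scramble libraries carry 27.6 to 63.0 CPM of UGT1A3 with hardly any UGT1A1, and the SETDB1-hairpin libraries 119 to 370 CPM of UGT1A3 topped by 10.8 to 18.3 CPM of UGT1A1.

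UGT2A3 rose in both SETDB1-hairpin fractions. Vehicle read 12.5, 14.9 and 9.82 CPM, differentiation medium 7.19, 9.83 and 6.45 CPM, KRT20-negative cells 73.9, 89.1 and 33.9 CPM and KRT20-positive cells 62.9, 57.1 and 50.3 CPM. Both fractions lay above all scramble libraries, and the lowest of them was again KRT20-negative replicate 3. Among the KRT20-negative libraries that replicate was also lowest for CYP3A4 and SULT2A1, but highest for CYP3A5, MAOA, UGT1A1 and SULT1C2. The part of its fibroblast markers in these levels was not tested. The rise over vehicle was 5.28-fold in KRT20-negative (log2 2.39 ± 0.36, adjusted p = 0.000703) and 4.57-fold in KRT20-positive cells (2.18 ± 0.36, adjusted p = 0.00117). Between the fractions the difference was -0.21 ± 0.31 (adjusted p = 0.817). Without KRT20-negative replicate 3 it was -0.52, lower in KRT20-positive cells (adjusted p = 0.00811).

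SULT1C2 rose in both fractions, with no difference detected between them. Vehicle read 15.8, 12.2 and 16.0 CPM, differentiation medium 16.6, 14.7 and 14.7 CPM, KRT20-negative cells 51.6, 54.9 and 57.8 CPM and KRT20-positive cells 58.4, 52.4 and 52.5 CPM. The 2 scramble groups overlapped, as did the 2 sorted fractions, and the sorted fractions were clear of the scramble groups. Against vehicle the rise was 3.73-fold (log2 1.90 ± 0.12, adjusted p = 1.06e-11) and 3.71-fold (1.89 ± 0.12, adjusted p = 1.01e-11), and the fractions differed by -0.01 ± 0.11 (adjusted p = 0.98).

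SULT2A1 moved in opposite directions in the medium and in the SETDB1-hairpin cells. Vehicle read 50.1, 48.0 and 54.2 CPM, differentiation medium 23.3, 15.8 and 22.7 CPM, KRT20-negative cells 123, 96.9 and 94.2 CPM and KRT20-positive cells 153, 107 and 133 CPM. The medium libraries were below and the sorted libraries above every vehicle library. In differentiation medium SULT2A1 fell by 1.29 ± 0.16 on the log2 scale (adjusted p = 1.70e-05). It rose 2.06-fold in KRT20-negative (1.05 ± 0.14, adjusted p = 1.74e-05) and 2.58-fold in KRT20-positive cells (1.37 ± 0.14, adjusted p = 6.56e-07). Measured from the medium, the KRT20-positive level was 6.36-fold higher (adjusted p = 4.29e-10). These comparisons share their control libraries.

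NR1I2, which encodes PXR, was hardly counted in Caco2. Vehicle read 0, 0.135 and 0 CPM, differentiation medium 0, 0 and 0.387 CPM, KRT20-negative cells 0.114, 0 and 0 CPM and KRT20-positive cells 0, 0.133 and 0 CPM. No group had counts in more than 1 library, and the groups overlapped. It was removed by the low-count filter, and without that filter its adjusted p was 0.586 to 1 over the 6 Caco2 comparisons. A change was thus not detectable at this depth. NR1I2 was at 0 in every SW480 library and in 8 of 9 HCT116 libraries, with 6.40 CPM in the library labelled KRT-negative replicate 2.

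Of the partners and neighbours of PXR, HNF4A, a hepatic and intestinal factor that activates many of these enzymes, read 446, 445 and 436 CPM in vehicle, 330, 347 and 325 CPM in differentiation medium, 539, 520 and 391 CPM in KRT20-negative and 506, 485 and 470 CPM in KRT20-positive cells. It fell by 0.41 ± 0.09 on the log2 scale in the medium (adjusted p = 0.00177), and its differences in the fractions, 0.13 and 0.14, did not pass the test (adjusted p = 0.269 and 0.227). RXRA fell in the medium (-0.30 ± 0.10, adjusted p = 0.0449) and rose in KRT20-negative (0.33 ± 0.10, adjusted p = 0.0119) and KRT20-positive cells (0.32 ± 0.10, adjusted p = 0.0151). VDR, itself the receptor of the medium's vitamin D, fell by 0.93 ± 0.13 in KRT20-negative (adjusted p = 6.79e-06) and by 0.76 ± 0.13 in KRT20-positive cells (adjusted p = 7.64e-05), from 26.7 CPM in vehicle to 14.1 and 15.8 CPM. NR1I3, the related receptor CAR, stood at 1.71 CPM in vehicle and was not called in any of the 3 comparisons with vehicle (adjusted p = 0.570 to 0.966). PPARG fell in KRT20-negative cells (-0.65 ± 0.23, adjusted p = 0.0275) and was not called in KRT20-positive cells (0.10 ± 0.22, adjusted p = 0.752).

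Of the 9 genes, 8 passed the low-count filter in Caco2, but CYP3A4, CYP2B6, UGT1A1 and MAOA did so only through groups in which they were high and so had to differ. The counts below account for each gene and are not evidence for the set. In differentiation medium 2 of 8 were called at 5% FDR, CYP2B6 higher and SULT2A1 lower, beside 20.9% of all 13968 tested genes. In KRT20-negative cells 7 of 8 rose against vehicle, all but CYP3A5 (18.6% of all genes rose). In KRT20-positive cells 8 of 8 rose (19.3% of all genes rose). Of the 4 genes that passed in vehicle cells too, CYP3A5, UGT2A3, SULT1C2 and SULT2A1, 3 rose in KRT20-negative and 4 in KRT20-positive cells. Between the fractions 2 of 8 were called, CYP2B6 and MAOA, both higher in KRT20-positive cells (2.3% of all genes were). Against differentiation medium 7 rose in KRT20-negative (19.6% of all genes) and 8 in KRT20-positive cells (18% of all genes). In a bulk library, fewer cells of a type and less RNA per cell cannot be told apart.

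**Figure D4:**
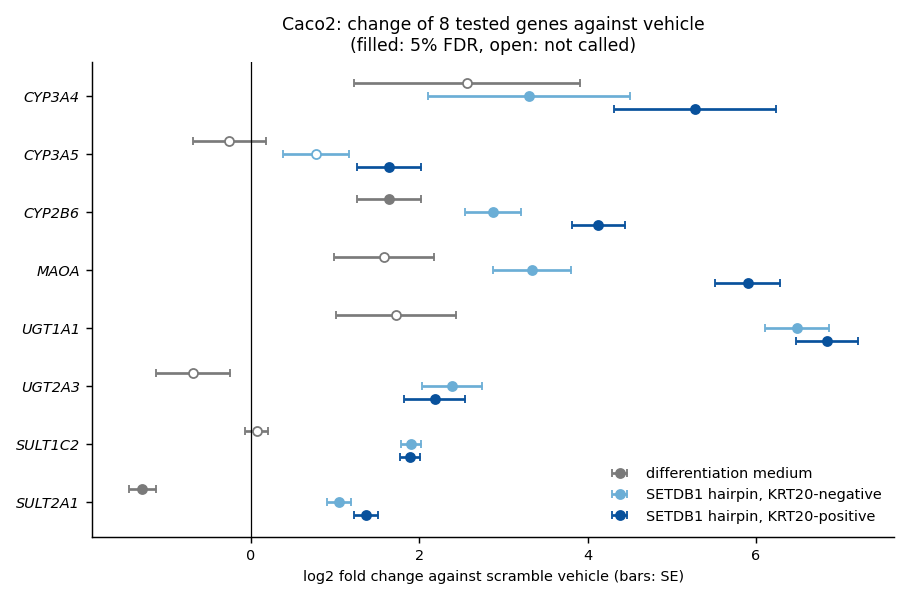
Fitted log2 fold change against scramble vehicle with its SE for the 8 genes tested in Caco2; filled symbols passed 5% FDR and open ones did not. The SETDB1-hairpin points lie to the right of 0 for all 8, and in the medium SULT2A1 lies at -1.29 and CYP2B6 at 1.64.

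In HCT116 4 of the 9 genes passed the filter and in SW480 5, and edgeR called 0 of them in each of the 6 comparisons, beside 5.26%, 9.28% and 0.55% of all genes in HCT116 (KRT-negative and KRT-positive against unsorted, and between them) and 2.12%, 3.47% and 0.445% in SW480. At an unadjusted p under 0.05 there were 0 in the 3 HCT116 comparisons, and in SW480 2 against unsorted cells in KRT-positive cells (CYP3A4 and CYP2B6), 1 in KRT-negative cells (CYP2B6) and 1 between the fractions (CYP3A4). The share of all genes under that unadjusted p was not counted, so these numbers have no background here. In SW480 CYP3A4 passed the filter only through the KRT-positive libraries and CYP2B6 only through the sorted ones, so both had to differ. DESeq2 called 0 in HCT116 and CYP3A4 alone in SW480. CYP2B6 and UGT1A1 were at 0 in all 9 HCT116 libraries and in unsorted SW480 cells, and UGT2A3 was at 0 in both lines throughout. SULT2A1 had 0.222 CPM at most in these lines. CYP3A5, SULT1C2 and MAOA were present with a wide spread. In SW480 MAOA read 28.7, 3.77 and 12.7 CPM in KRT-positive, 26.5, 20.4 and 13.4 CPM in KRT-negative and 16.6, 0.351 and 0.654 CPM in unsorted cells, all overlapping. The step in MAOA between the Caco2 fractions was thus not detectable at the spread of SW480, where the difference was -0.41 ± 1.31, or of HCT116, where it was 0.85 ± 1.67. CYP3A5 in SW480 read 0, 28.9 and 8.60 CPM in KRT-positive and 8.98, 31.4 and 6.79 CPM in KRT-negative cells, the high values of both groups coming from replicate 2. Unsorted SW480 cells read 4.79, 0.234 and 2.94 CPM, all below the KRT-negative libraries, whose mean was 5.93-fold higher (log2 2.56 ± 1.77, adjusted p = 0.656).

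The remaining counts of these lines were uneven within groups. CYP2B6 in SW480 read 13.5, 0 and 4.55 CPM in cells labelled KRT-positive and 1.30, 6.78 and 0 CPM in those labelled KRT-negative. With counts pooled over the libraries of a group and 3 counts set for the unsorted group as a whole, the ratio to unsorted cells was 50.3 for the KRT-positive and 21.4 for the KRT-negative cells, without a call (adjusted p = 0.239 and 0.379). These ratios allow for counting error only. They are no lower limits given the spread between libraries, as a library of each fraction read 0 like the unsorted ones. UGT1A1 in SW480 was counted only in replicate 2 of either fraction, at 13.5 CPM in KRT-positive and 8.89 CPM in KRT-negative cells, and was not tested. The UGT1A locus as a whole was highly counted there: UGT1A3 read 452, 53.4 and 367 CPM in KRT-positive, 822, 432 and 388 CPM in KRT-negative and 521, 364 and 270 CPM in unsorted SW480 cells, which overlapped. In HCT116 UGT1A3 read 36.6, 13.0 and 27.1 CPM in KRT-positive, 3.20, 28.2 and 2.97 CPM in KRT-negative and 5.85, 1.87 and 1.71 CPM in unsorted cells. The KRT-positive libraries were above the unsorted ones, a difference that DESeq2 called and edgeR did not. SULT1C2 in SW480 read 17.2, 0 and 0 CPM in KRT-positive, 10.4, 29.8 and 6.16 CPM in KRT-negative and 5.83, 4.68 and 16.4 CPM in unsorted cells, which overlapped. In HCT116 CYP3A5 was at 0 in unsorted cells and present in 1 of 3 KRT-positive libraries (4.49 CPM) and 2 of 3 KRT-negative ones (8.49 and 2.22 CPM). MAOA in HCT116 read 4.72, 8.51 and 12.4 CPM in KRT-positive, 11.6, 0 and 2.65 CPM in KRT-negative and 2.44, 4.17 and 5.33 CPM in unsorted cells, again overlapping.

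Ranked over all 10 groups, the Caco2 SETDB1-hairpin fractions held the top levels of CYP2B6, UGT2A3, SULT1C2 and SULT2A1, and of the counts under UGT1A1. With all UGT1A symbols summed, SW480 led instead, with 551 CPM in KRT-negative and 385 CPM in unsorted cells, above the Caco2 KRT20-positive (351 CPM), SW480 KRT-positive (297 CPM) and Caco2 KRT20-negative means (263 CPM). For SULT2A1 the means were 131 ± 23.4 (SD, n = 3), 105 ± 16.1, 50.8 ± 3.13 and 20.6 ± 4.17 CPM in KRT20-positive, KRT20-negative, vehicle and medium cells, and only the first and the second overlapped. For CYP2B6 the KRT20-positive mean of 18.4 ± 2.61 CPM did not overlap the next, the KRT20-negative one of 7.70 ± 0.895 CPM. MAOA was led by SW480 KRT-negative (20.1 CPM), Caco2 KRT20-positive (19.8 CPM) and SW480 KRT-positive cells (15.1 CPM), and CYP3A5 by the SW480 fractions (15.7 and 12.5 CPM) and Caco2 KRT20-positive cells (10.3 CPM), with overlap between these neighbours.

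Genes of the same pathways were followed in 6 lists with 152 genes, of which 114 were tested in Caco2. In differentiation medium 15 rose and 26 fell, in KRT20-negative cells 57 rose and 13 fell, and in KRT20-positive cells 61 rose and 11 fell against vehicle, with median log2 differences of -0.05, 0.40 and 0.41. Of all genes, 10.4% rose and 10.5% fell in the medium, 18.6% rose and 17.6% fell in KRT20-negative cells, and 19.3% rose and 18.4% fell in KRT20-positive cells. Of 13 other P450 genes 8 rose in KRT20-positive cells, among them CYP2C19, which oxidises many drugs (26.5-fold, adjusted p = 5.26e-07), and CYP4F12 (22.7-fold, adjusted p = 4.64e-07). These named genes had 7 and 5 counts in vehicle and passed the low-count filter only through the SETDB1-hairpin groups, so they had to differ. The lists thus hold such genes, and their counts of calls are a description and not evidence for the pathways. POR, the electron donor of all microsomal P450 enzymes, rose 1.74-fold. Of 31 other oxidoreductases and hydrolases 18 rose and 3 fell, with AKR1C3, a steroid reductase, at 31.9-fold and the carboxylesterase CES1 at 3.41-fold, though the AKR1C genes are close copies that reads may not separate.

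In KRT20-positive cells, of 11 further genes of glucuronidation 8 rose and 1 fell, UGT2B15 at 18.1-fold and UGT2B7, which conjugates morphine, at 9.62-fold. UGT2B15, with 17 counts in vehicle, also passed the filter only through the SETDB1-hairpin groups. Of 9 genes of sulfation 6 rose and 1 fell, among them PAPSS2, which makes the sulfate donor (4.95-fold), and SULT1E1, the estrogen sulfotransferase (4.86-fold). Of 19 glutathione, acetyl and methyl transferases 8 rose, 2 fell and 9 were not called, with GSTA1 at 10.1-fold and INMT lower (log2 -4.53 ± 0.56). Of 31 receptors and regulators 13 rose and 4 fell. NR1H4, the bile acid receptor FXR, rose 8.30-fold (log2 3.04 ± 0.40, adjusted p = 1.90e-06) and was also higher in differentiation medium (4.45-fold, adjusted p = 0.00076). NFE2L2 fell by 0.73 ± 0.07 in KRT20-positive cells. NR1H4 had only 19 counts in vehicle and INMT only 4 in KRT20-positive cells, whereas GSTA1 had 602 in vehicle. Whether NR1H4 and INMT passed the filter only through their higher groups is not given here. Between the fractions 9 of the 114 were higher and 3 lower in KRT20-positive cells (2.3% and 1.78% of all genes), NR1H4 (2.63-fold, adjusted p = 0.0136) among the higher.

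**Figure D5:**
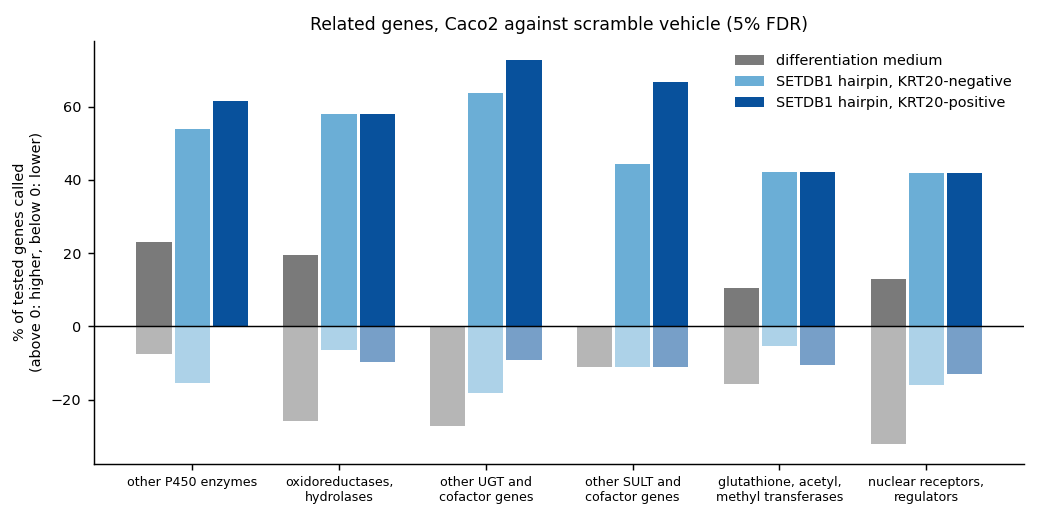
Share of tested genes called at 5% FDR in 6 lists of related genes in Caco2 against scramble vehicle, higher above 0 and lower (paler) below 0. In all 6 lists both SETDB1-hairpin groups have more genes higher than lower, and in the medium 5 lists have more lower than higher, the P450 list being the exception.

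The genes whose levels ran most like these enzymes over the 12 Caco2 libraries were found by Pearson's r of log2(CPM + 1), given as a description because the libraries share their groups. CYP2B6 ran with GALNT4 and its overlapping readthrough POC1B-GALNT4 and with FTH1 (r = 0.979 each), and MAOA with RBP2, the retinol carrier of enterocytes (0.973), VAV3 (0.962) and FAM162A (0.961). UGT1A1 ran with ZNF117 and APOA2 (0.994 each), and SULT1C2 with MALRD1 (0.993), AKR1C3 and APOA2 (0.992 each). UGT2A3 was closest to ANO6, GLUL (0.981 each) and BNIP3 (0.979), SULT2A1 to TFPI (0.983), SEMA6A (0.982) and TSPAN7 (0.981), and CYP3A5 to CDKN2B (0.934), HAL (0.908) and TM4SF20 (0.905). By Spearman's rank correlation 0 of the 3 names remained for CYP2B6, UGT1A1, SULT1C2, SULT2A1 and MAOA. CYP3A4 and NR1I2 were below the mean of 1 CPM needed for this measure.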

How the data were processed

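Per the labels' protocols, RNA was taken with Trizol and libraries were made with a Lexogen Quant-Seq kit. The authors deposited raw counts per gene symbol, 1 table per library, and the submitters' processing notes name Bowtie2, edgeR and hg19, without versions or settings. The deposited counts were whole numbers; 1561 lines of 286 repeated symbols were summed, leaving 24462 symbols. The members and lists were chosen with earlier results of these data known. For each line, 1 quasi-likelihood model over its groups was fitted with edgeR 4.0.16 (R 4.3.3; low counts removed by filterByExpr, TMM scaling, Benjamini-Hochberg over 13968, 13279 and 13252 tested genes in Caco2, HCT116 and SW480), and a gene was called at 5% FDR. SE is the log2 fold change over the square root of F, CPM uses TMM factors, and folds are ratios of mean CPM. Intervals and the limit of 3 counts cover counting error only.

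All 9 genes are named in each comparison; each list names up to 4 genes with the smallest adjusted p in KRT20-positive cells and at least 1 CPM, and HNF4A, VDR, RXRA, NR1I3 and PPARG always. Likeness names the top 3 genes of at least 5 CPM. Some genes that these rules name are not reported here. Alternatives were RLE factors, library totals, no filter, DESeq2 1.42.0, a replicate block, only the 2 groups compared, a GC class term and each library left out. Promoters came from RefSeq (GRCh38.p14) and gene overlaps from GENCODE 29, since no hg19 annotation was used here.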

Additional observations from a re-analysis of the deposited data

How the results depend on the processing

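Over 75 results of single genes and 914 alternative values, 895 kept their side of the threshold, 10 lost the call and 9 gained it. Called values changed sign in 0 cases, but uncalled ones that changed sign count among the 895. The uncalled CYP3A5 difference in the medium went from -0.25 to 0.51 without vehicle replicate 3. That of CYP3A4 between SW480 KRT-negative and unsorted cells went from -0.12 to 0.42 without KRT-negative replicate 3. It became 0.91 without unsorted replicate 3 and stayed negative without any other library of these groups. The number of genes described here that were called stayed at 8 in both KRT20-positive comparisons with scramble cells under every alternative run, and with 1 library left out it ran from 2 to 3 in differentiation medium, from 6 to 8 in KRT20-negative cells against vehicle, from 2 to 3 between the fractions, and from 6 to 7 in KRT20-negative cells against medium. DESeq2 called 1 in place of 0 in SW480 KRT-positive cells against unsorted and 1 in place of 0 against KRT-negative cells; the cause was not tested. Deviations from the group mean correlated weakly but positively between all same-numbered replicates of Caco2 (r = 0.0082 to 0.113) and SW480 (0.0207 to 0.151). In HCT116 they ran from -0.036 to 0.114. Differently numbered replicates gave -0.115 to 0.0349 in Caco2, -0.111 to 0.064 in SW480 and -0.22 to 0.129 in HCT116. Closest to their own number were 12 of 12 Caco2, 8 of 9 SW480 and 3 of 9 HCT116 libraries. This hint of pairing comes from the data and not from the design, and the main model held no replicate block. With the replicate block, calls between the Caco2 fractions numbered 3, SULT2A1 joining (log2 0.32, adjusted p = 0.0381), and calls over all SW480 genes went from 281, 460 and 59 to 461, 793 and 179. Over all genes DESeq2 called 1211, 1862 and 405 in HCT116 in place of 698, 1232 and 73, and 709, 1204 and 404 in SW480. Scaling by library totals changed the share of higher calls from 45.9% to 63.8% in HCT116 KRT-positive against unsorted cells, from 30.1% to 49.3% against KRT-negative cells, and from 50.8% to 63.5% in SW480 between the fractions, and took the median log2 difference of all genes in the first of these from 0.07 to 0.29. Over all genes, the Caco2 fractions differed in 307 genes when only both groups were fitted, in place of 570. Depth limits NR1I2 throughout and CYP3A4 in the scramble cells.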
